A study of Mus musculus with 10 samples.

Results

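In mouse ovarian libraries, 135 of the 23234 gene symbols in the expression table stood at 20 FPKM or more in both libraries of cumulus-oocyte complexes and below 1 FPKM in the 2-month cumulus library with the least oocyte RNA (replicate 2). FPKM is the number of fragments scaled to transcript length and to the mapped fragments of the library, so levels of different genes can be compared per length. Of the whole table, 165 genes (0.710%) met these values, and 30 were set aside by name because they are well known oocyte genes or belong to other families (zona pellucida, Nlrp, histone, Serpin and Kif symbols among them). The 135 that remain are called the complex transcripts here. The complexes were therefore high, and replicate 2 low, by choice, and their values in those 3 libraries are given as a description only.

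The study sequenced total RNA of 10 mouse libraries of 3 kinds: whole complexes, cumulus cells alone and mural granulosa cells. Cumulus cells came from C57BL/6 mice of 10 months (3 libraries) and of 2 months (3 libraries), and mural granulosa cells came from C57BL/6 mice of 2 months (2 libraries). The complexes came from 3 week-old, PMSG-primed mice, with 1 library from BDF1 (a hybrid of C57BL/6 and DBA/2) and 1 from DBA/2. PMSG, also called eCG, is a gonadotropin that drives follicle growth, and the labels of all samples speak of eCG-primed mice for library preparation and of a culture medium with milrinone, which holds oocytes in meiotic arrest. Complexes thus differ from the other libraries in strain and age, and by title in priming, as well as in holding oocytes, and these cannot be told apart. Separate animals are not named for the replicates, and each p-value below therefore reflects how far the libraries differ, a spread that may be technical.

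Cumulus cells surround the oocyte and are joined to it by projections through the zona pellucida, while mural granulosa cells line the follicle wall. A growing mouse oocyte stores messenger RNA for maturation and for the first divisions of the embryo, since it later stops transcribing. Many of the stored transcripts come from gene families that multiplied in rodents and lie in clusters, such as the Obox homeobox genes, the Oog and other PRAME family genes, the Khdc1 genes and a cluster of Fbxw genes. Transcription in growing oocytes is known to need factors such as FIGLA, NOBOX, SOHLH1 and LHX8. FIGLA and SOHLH1 are basic helix-loop-helix proteins, a class that binds the E-box CANNTG.

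The libraries were checked against markers. Summed over 8 mural markers (such as Lhcgr and Cyp11a1), the mural libraries reached 5522 and 8300 FPKM. The 10-month cumulus libraries stood at 389, 823 and 1815 FPKM, against 288, 333 and 257 in 2-month cumulus cells and 202 and 406 in the complexes. Cumulus markers set the libraries apart less. Of 8 such genes, 5 reached 1 FPKM in 2-month cumulus replicates 1 and 2, 7 in replicate 3 and 5 in each mural library. Their sums were 870, 772 and 664 FPKM in 2-month cumulus cells and 389 and 230 in mural cells. In the mural comparison below only Npr2 of the 8 passed, as lower in mural cells. Summed over 24 known oocyte genes, the complexes reached 5103 and 4936 FPKM, replicate 2 of the 2-month cumulus cells 13.5, mural replicate 2 45.3, and 2-month cumulus replicate 3 1911. The library labelled 2-month cumulus replicate 3 thus stood apart from the other cumulus libraries, whose sums lay between 13.5 and 598. Summed over 8 immune markers, the mural libraries stood at 18.9 and 41.3 FPKM and the 10-month cumulus libraries at 19.9, 41.0 and 53.5, against 3.47, 7.39 and 5.60 in 2-month cumulus cells. Summed over 7 erythroid markers, the mural libraries stood at 141 and 82.5 FPKM and 10-month cumulus replicate 3 at 136, with the other cumulus libraries between 13.3 and 23.2. For 8 surface epithelium markers the 10-month cumulus libraries summed to 59.3, 51.5 and 113 FPKM. The 2-month ones summed to 34.6, 26.1 and 30.2, and the mural libraries to 47.5 and 31.3. The mural, immune and erythroid sums move with both comparisons below, and the surface epithelium sum with that of age. Their part in these comparisons was not tested. In bulk RNA, fewer oocytes in a sample and less RNA per oocyte cannot be told apart. Read depth is not given, but the steps between low FPKM values put the complexes at 0.283 and 0.279 of the depth of 10-month cumulus replicate 1, and the other libraries at 1.09 to 1.42 of it. Replicate 2 of the 2-month cumulus cells (1.09) was therefore not the shallowest library, although 73 of the 135 transcripts were listed at 0 in it.

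The sequences upstream of these genes are shown because 1 E-box stood out in them, CAGCTG, which reads the same on both strands. Bases before the annotated start are from RefSeq promoters on GRCm38.p6, not from the build of the expression table, and are written 5′ to 3′ on the gene's strand with every CAGCTG in capitals. The examples come from the transcript with the highest level (Gm15698), from clustered families (Fbxw24, Fbxw28, Oog3, Trim61) and from genes of RNA handling and secretion outside those clusters (Pabpn1l, Fam46b, Plac1l). They were chosen after the motif counts were known.
Gm15698: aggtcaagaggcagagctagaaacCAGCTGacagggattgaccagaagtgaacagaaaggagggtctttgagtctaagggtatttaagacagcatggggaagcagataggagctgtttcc
Fbxw24: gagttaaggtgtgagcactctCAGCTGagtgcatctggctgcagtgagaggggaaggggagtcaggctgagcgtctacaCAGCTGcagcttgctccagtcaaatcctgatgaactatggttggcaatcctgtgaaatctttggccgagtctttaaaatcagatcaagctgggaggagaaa
Fbxw28: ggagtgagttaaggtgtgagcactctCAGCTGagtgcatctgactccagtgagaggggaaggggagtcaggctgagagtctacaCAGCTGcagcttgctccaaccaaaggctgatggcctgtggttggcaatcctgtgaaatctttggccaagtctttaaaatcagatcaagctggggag
Oog3: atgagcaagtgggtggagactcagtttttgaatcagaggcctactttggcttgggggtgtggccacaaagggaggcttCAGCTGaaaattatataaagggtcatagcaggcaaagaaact
Trim61: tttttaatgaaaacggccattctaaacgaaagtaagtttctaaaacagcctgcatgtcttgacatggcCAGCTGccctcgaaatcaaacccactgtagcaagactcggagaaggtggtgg
Pabpn1l: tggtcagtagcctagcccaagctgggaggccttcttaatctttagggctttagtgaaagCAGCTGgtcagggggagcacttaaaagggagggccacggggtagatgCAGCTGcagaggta
Fam46b: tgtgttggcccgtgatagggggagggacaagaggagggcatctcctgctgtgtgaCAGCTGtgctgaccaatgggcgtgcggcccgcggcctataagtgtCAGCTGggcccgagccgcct
Plac1l: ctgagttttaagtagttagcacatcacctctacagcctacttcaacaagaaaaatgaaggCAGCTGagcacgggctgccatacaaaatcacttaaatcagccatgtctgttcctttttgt
Each run ends at the base before the start site. The windows are Gm15698 at chr11:88966932-88967051 (- strand), Fbxw24 at chr9:109626060-109626239 (- strand), Fbxw28 at chr9:109339660-109339839 (- strand) and Oog3 at chr4:144162652-144162771 (- strand). The others are Trim61 at chr8:65018689-65018808 (- strand), Pabpn1l at chr8:122622736-122622855 (- strand), Fam46b at chr4:133480013-133480132 (+ strand) and Plac1l at chr19:11660560-11660679 (- strand). Trim60 shares its window with Trim61.

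Of the 135 transcripts, 111 had an entry in the promoter table, with 110 distinct windows. CAGCTG lay within 250 bases upstream of 43 of the 111 (38.7%), against 2136 of all 17519 promoters (12.2%). Within 120 bases the shares were 32.4% and 6.25%. All 10 Fbxw genes with an entry held the motif, and their upstream windows were alike, with 60.7% to 96.0% identity over 45 pairs, so these 10 are not independent of each other. Outside the Fbxw genes 33 of 101 (32.7%) held it, and outside all clustered families, set by symbol prefix, 22 of 77 (28.6%). These 77 still hold relatives under other symbols, so they are not all independent either. Among the 22 are Gm13084 (Pramel26 in RefSeq) and the neighbours Gm813 and E330017A01Rik. Of 15 known oocyte genes with an entry, 3 (20%) held it.

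CAGCTG was 1 of 10 E-box forms searched, and is named for its share. CACCTG followed with 35.1% of the 111 against 16.6% of all promoters and 9 of the 15 known oocyte genes, and any E-box (CANNTG, which holds both forms) with 84.7% against 62.8%. CACGTG was found in 3.60% against 6.87%. The letters TAATTG, known from NOBOX binding, were found in 9.91% against 6.40%, TATAAA in 11.7% against 12%, CCAAT in 33.3% against 36.3% and GGGCGG in 28.8% against 43.6%. The windows of the complex transcripts had a median GC content of 50.0% against 55.6%, and a median of 4 CpG against 10. These counts cover both strands, are descriptions of letters, and no factor's binding was measured.

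**Figure D1:**
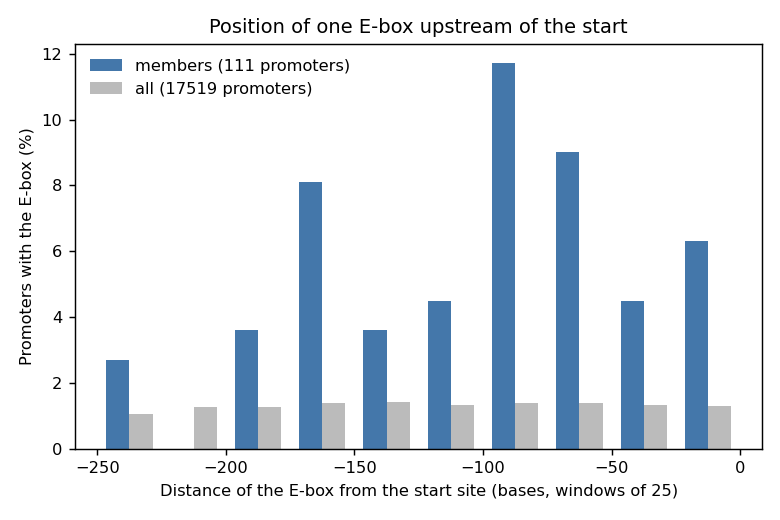
Share of promoters (y axis, percent) with the E-box CAGCTG in each window of 25 bases upstream of the start site (x axis, bases), for the 111 complex transcripts in the promoter table and for all 17519 promoters. The highest share among the complex transcripts, 11.7%, lies 75 to 100 bases before the start, where 1.40% of all promoters have it. The 13 genes there include Fbxw14, Fbxw16, Fbxw18, Fbxw20, Fbxw21, Fbxw26 and Fbxw28. The upstream windows of these Fbxw genes are alike, so they are not independent of each other.

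Clustered families made up much of the set. Genes next to another member in RefSeq order numbered 36 of the 124 protein-coding members placed (29.0%), while 1.13% of all 20216 placed genes neighboured one. They formed 12 runs, the longest of 10 Fbxw genes in a row on chromosome 9, and another holds Khdc1a, Khdc1c and Khdc1b. By RefSeq, 124 members are protein-coding, 9 are long non-coding RNAs and 2 are pseudogenes, and 22 carry other names there. Among these are Gm15698 (Elobl), 2410004A20Rik (Khdc3), Folr4 (Izumo1r), Plac1l (Oosp2), Gm97 (Oosp3), AU022751 (Ezhip), Fam46b (Tent5b) and Gm13023 (Pramel25).

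The transcript with the highest level, Gm15698, named for its likeness to elongin B, stood at 691 FPKM in the BDF1 and 797 in the DBA/2 complexes, 44.9, 0 and 207 in the 2-month cumulus replicates 1, 2 and 3, 50.9, 37.8 and 59.8 in the 10-month cumulus replicates, and 27.2 and 0.780 in the mural replicates. Values below follow the same order of replicates. Among separated cells Gm15698 was highest in 2-month cumulus replicate 3 and, leaving aside replicate 2, lowest in mural replicate 2. The next by level were Slc45a3, a sugar transporter of the SLC family, at 308 and 311 FPKM in BDF1 and DBA/2 complexes, Khdc1b at 269 and 306, and Zfp57 at 261 and 275. Gm13023, E330021D16Rik, Oas1e, Oas1d, Cpsf4l, D6Ertd527e, Fbxw24 and C87977 completed the 12 highest, each between 181 and 318 FPKM in each complex.

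Fbxw genes encode F-box proteins with WD repeats, and F-box proteins present substrates to SCF ubiquitin ligases. Of 21 symbols with that prefix, 11 were complex transcripts, with a mean over the complexes of 42.9 (Fbxw22) to 219 FPKM (Fbxw24). Fbxw24 stood at 233 and 205 FPKM in BDF1 and DBA/2 complexes, against 14.7, 0 and 96.2 in 2-month cumulus cells, 18.7, 12.5 and 28.2 in 10-month cumulus cells and 11.8 and 1.03 in mural cells. Fbxw28 followed with 179 and 218 and Fbxw14 with 162 and 187 FPKM in the complexes. These 2 shared 66.0% of the 50-base stretches of Fbxw28's transcript and 96.0% of their upstream bases, so their reads may be split between them. Summed, they stood at 27.3% of their complex level in 2-month cumulus replicate 3, and at 3.55% to 8.24% in the 10-month libraries, 2-month replicate 1 and mural replicate 1.

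PRAME family proteins carry leucine-rich repeats, and PRAME itself is a substrate receptor of a ubiquitin ligase. By RefSeq name 12 members belong to it, from Gm13125 at a mean of 24.6 to Gm13023 at 268 FPKM, with all 4 Oog (oogenesin) genes. Gm13023 stood at 6.76, 0.0254 and 39.2 FPKM in the 2-month cumulus libraries, 8.55, 5.45 and 13.1 in the 10-month ones and 4.63 and 0.260 in the mural ones, beside 217 and 318 in the BDF1 and DBA/2 complexes. Oog3, the Oog gene with the highest level, stood at 147 and 174 FPKM in BDF1 and DBA/2 complexes, against 6.70, 0.126 and 52.0 in 2-month cumulus cells, 10.3, 6.17 and 19.0 in 10-month cumulus cells and 4.87 and 0.229 in mural cells. Both were highest in the complexes, followed by 2-month cumulus replicate 3. Oog1 is uncertain, since 88.6% of its 50-base stretches also lie in other transcripts.

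KH domain proteins bind RNA. All 3 Khdc1 genes were members, together with 2410004A20Rik (Khdc3, also called FILIA, a part of the subcortical maternal complex) and Dppa5a. Khdc1b had 269 and 306 FPKM in BDF1 and DBA/2 complexes, against 13.2, 0.203 and 85.5 in 2-month cumulus cells, 16.3, 8.54 and 28.4 in 10-month cumulus cells and 9.99 and 1.23 in mural cells. 2410004A20Rik had 112 and 141 FPKM in BDF1 and DBA/2 complexes, against 5.06, 0 and 23.6 in 2-month cumulus cells, 6.73, 3.43 and 6.84 in 10-month cumulus cells and 4.86 and 0.893 in mural cells, and its level in 2-month cumulus replicate 3 was 18.7% of its complex mean, against a median of 35.4% over the 135.

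Oas1 genes belong to the oligoadenylate synthetase family of antiviral enzymes, and Oas1d is known from oocytes. Of 8 Oas1 symbols 4 were members, with means of 89.7 to 241 FPKM. Oas1e stood at 253 and 229 and Oas1d at 237 and 215 FPKM in BDF1 and DBA/2 complexes, and their shares in 2-month cumulus replicate 3 were alike (30.3% and 29.4%). Tcl1 proteins bind the kinase AKT. Of 6 Tcl1 symbols 4 were members, led by Tcl1 itself at 156 and 159 FPKM. Rfpl4, a RING finger protein of the oocyte, stood at 169.5 and 173 FPKM, and Trim61, the highest of 3 Trim members, at 115 and 88.9.

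Obox genes encode oocyte homeobox proteins. Obox1 stood at 168 FPKM in the BDF1 and 192 in the DBA/2 complexes, 9.64, 0 and 63.5 in the 2-month cumulus replicates 1, 2 and 3, 8.15, 6.10 and 17.3 in the 10-month cumulus replicates, and 5.54 and 0.187 in the mural replicates. Obox5 was close to it in the complexes, at 158 and 162 FPKM. Obox2 stood at 7.76, 0 and 53.3 FPKM in the 2-month cumulus libraries, 6.07, 5.53 and 13.0 in the 10-month ones and 4.60 and 0.252 in the mural ones, beside 40.1 and 34.7 in the BDF1 and DBA/2 complexes. In 2-month cumulus replicate 3 it passed both complexes, at 143% of their mean. Obox1 and Obox2 share 58.0% of the 50-base stretches of Obox1, however, and their sum in that library was 53.8% of the complex level, so the value of Obox2 alone is uncertain.

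Stored messenger RNA is kept silent with short tails and is translated or destroyed later. From a list of genes of RNA storage and translation, 4 of the 23 in the table were members. Eif4e1b, an oocyte form of the cap-binding protein, stood at 197 FPKM in the BDF1 and 150.0 in the DBA/2 complexes, 21.7, 0 and 92.6 in the 2-month cumulus replicates 1, 2 and 3, 26.0, 8.96 and 37.7 in the 10-month cumulus replicates, and 12.5 and 0.670 in the mural replicates. Cpeb1, which binds the cytoplasmic polyadenylation element, stood at 99.6 and 96.1 FPKM in BDF1 and DBA/2 complexes, against 5.16, 0 and 33.0 in 2-month cumulus cells, 5.46, 3.83 and 10.0 in 10-month cumulus cells and 4.40 and 0.327 in mural cells. Zar1l, a relative of the RNA-binding protein ZAR1, and Pabpc1l, the poly(A)-binding protein of oocytes and early embryos, were lower in the complexes, with 83.2 and 94.5 FPKM for Zar1l and 59.8 and 51.5 for Pabpc1l. All 4 were lowest in mural replicate 2 among the 7 libraries the rule did not use, where Zar1l was listed at 0.

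Other members handle RNA but were in none of the lists used, and were grouped by known function after their values were seen. Cpsf4l, named for its likeness to a cleavage and polyadenylation factor, stood at 218 and 226 FPKM in BDF1 and DBA/2 complexes. Pabpn1l, a poly(A)-binding protein with a part in the decay of maternal RNA, stood at 100.2 and 110.0, and Fam46b, a poly(A) polymerase, at 66.7 and 80.9. The splicing regulator Esrp1 and the RNA-binding protein Igf2bp2 were lower, with 49.5 and 39.2 for Esrp1 and 29.6 and 37.2 for Igf2bp2.

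Small RNAs of the PIWI class silence transposons in germ cells. From a list of that pathway 4 of 20 genes were members: Gtsf1, Tdrd12, Mael and Tdrd1. Gtsf1, a PIWI partner, stood at 60.1 and 51.9 FPKM in BDF1 and DBA/2 complexes, against 3.05, 0 and 29.5 in 2-month cumulus cells, 7.0, 2.81 and 10.3 in 10-month cumulus cells and 4.53 and 0.365 in mural cells. Mael stood at 0.882, 0 and 3.80 FPKM in the 2-month cumulus libraries, 0.845, 0.542 and 1.37 in the 10-month ones and 0.125 and 0 in the mural ones, beside 22.0 and 23.1 in the BDF1 and DBA/2 complexes, and was the only one of the 135 below 5 FPKM in all 7 libraries outside the rule. Its level there was lower relative to the complexes than that of Tdrd1, which had 11.3 FPKM in 2-month cumulus replicate 3 and 21.7 and 20 in the complexes.

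From a list of meiotic chromosome genes 1 of 30, and from a list for meiotic arrest and division 1 of 25, were members. Aurkc, the meiotic Aurora kinase, stood at 43.4 and 47.1 FPKM in BDF1 and DBA/2 complexes, against 3.75, 0.437 and 20.6 in 2-month cumulus cells, 3.83, 2.88 and 5.25 in 10-month cumulus cells and 4.06 and 1.20 in mural cells, but 63.7% of its 50-base stretches are shared with other transcripts. Ccno, cyclin O, stood at 161 and 196 FPKM in BDF1 and DBA/2 complexes, against 10.7, 0.495 and 55.2 in 2-month cumulus cells, 14.6, 7.07 and 14.8 in 10-month cumulus cells and 5.31 and 0.452 in mural cells. Ccno was below the median percent of the 135 transcripts in 7 of 7 libraries.

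Among transcription factors, Zfp57, a zinc finger protein that protects imprints, had the highest level, with 261 FPKM in the BDF1 and 275 in the DBA/2 complexes, 18.9, 0.137 and 109.7 in the 2-month cumulus replicates 1, 2 and 3, 21.0, 12.7 and 34.8 in the 10-month cumulus replicates, and 13.2 and 4.26 in the mural replicates. Pou5f1 (OCT4), a factor of germ cells and pluripotent cells, stood at 4.46, 0 and 21.5 FPKM in the 2-month cumulus libraries, 7.40, 4.39 and 4.92 in the 10-month ones and 2.70 and 0.493 in the mural ones, beside 41.5 and 41.8 in the BDF1 and DBA/2 complexes. It was above the median percent of the 135 in 7 of 7 libraries. Sebox, a homeobox gene with a maternal role in the embryo, stood at 31.7 and 27.1 FPKM in the complexes. From the list of transcription and chromatin genes 6 of 32 were members: these 3 and the 3 Obox genes. Klf17, Zfp296, Tfap2e, Tbx4, Gbx2, Zfp750 and Zfp957 were placed with them after their values were seen, at means of 27.2 (Zfp957) to 61.8 FPKM (Tfap2e).

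Of the list for the egg surface and fertilization, 4 of 22 genes were members. Plat, tissue plasminogen activator, stood at 149.5 and 159.8 FPKM in BDF1 and DBA/2 complexes, against 12.5, 0.0890 and 60.4 in 2-month cumulus cells, 15.2, 7.89 and 24.6 in 10-month cumulus cells and 7.19 and 5.19 in mural cells. Astl, the zona-cleaving protease ovastacin, stood at 105 and 91.8 FPKM in BDF1 and DBA/2 complexes, against 5.63, 0 and 26.3 in 2-month cumulus cells, 8.55, 4.02 and 8.82 in 10-month cumulus cells and 5.01 and 0.783 in mural cells. Folr4 (JUNO), the egg's receptor for sperm IZUMO1, stood at 6.07, 0 and 19.8 FPKM in the 2-month cumulus libraries, 4.94, 3.12 and 6.41 in the 10-month ones and 3.33 and 0.513 in the mural ones, beside 53.5 and 48.7 in the BDF1 and DBA/2 complexes. Umodl1 was lower in the complexes, at 23.8 and 33.8 FPKM. Plat held 5.19 FPKM in mural replicate 2, and the other 3 genes stood at 0.0781 to 0.783 there.

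Of the oocyte-secreted proteins, Gm97 stood at 58.3 and 86.4 FPKM in BDF1 and DBA/2 complexes and Plac1l at 61.3 and 66.0. Rspo2, an R-spondin that amplifies WNT signals, stood at 41.2 and 47.8. Transport and metabolism members other than Slc45a3 were Miox (84.3 and 67.6), the zinc transporter Slc30a3 (57.3 and 64.8), Upp1, Arg2, Pkd2l2 and Slc25a48. By group, the median level over the complexes ran from 25.6 FPKM for the small RNA genes to 183 for the Oas1 genes.

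**Figure D2:**
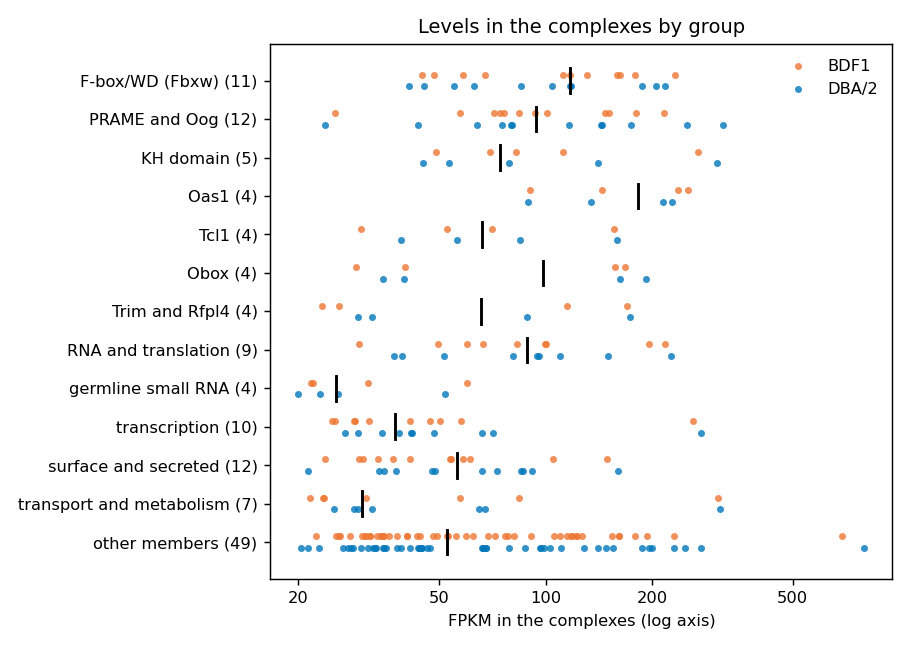
FPKM (x axis, log scale) of each complex transcript in the BDF1 (orange) and DBA/2 (blue) complexes, by group (y axis, number of members in brackets); the black bar is the group's median of the mean of both complexes. The bars run from 25.6 FPKM for germline small RNA genes to 183 for Oas1 genes, and Gm15698 lies farthest right in both complexes.

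The 135 transcripts were not restricted to complexes in most of the 7 libraries outside the rule. Between 122 and 135 of them stood at 1 FPKM or more in 6 of these libraries, and 24 did so in mural replicate 2. Of all genes, 50.4% to 54.2% did so in those 6 libraries and 52.7% in mural replicate 2. Expressed as a percent of the mean of the complexes, the median over the 135 was 8.49%, 4.75% and 11.5% in the 10-month cumulus replicates, 6.13% and 35.4% in 2-month replicates 1 and 3, and 4.29% and 0.417% in the mural replicates. As group values these are 8.25% ± 3.39 (SD, n = 3) for 10-month cumulus, 20.8% ± 20.7 (SD, n = 2) for 2-month cumulus and 2.35% ± 2.74 (SD, n = 2) for mural cells. The ranges of the 10-month and 2-month cumulus cells overlapped, and each SD of a pair was about as large as its mean. The mural libraries lay below all 5 cumulus libraries.

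The 21 known oocyte genes with 20 FPKM or more in both complexes gave similar levels. Their medians were 9.95%, 5.65% and 12.1% in the 10-month libraries, 7.72% and 41.1% in 2-month replicates 1 and 3, and 5.19% and 0.603% in the mural libraries. The order of the 7 libraries was the same in both sets. The part of oocyte RNA in the differences between groups of separated cells was not tested. A covariate fit given with the mural comparison cannot decide it, because its covariate comes from known oocyte genes that share this order. Together the 135 transcripts made up 2.02% and 2.30% of the summed FPKM of the BDF1 and DBA/2 complexes, and 0.0249% to 0.799% in the 7 other libraries.

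**Figure D3:**
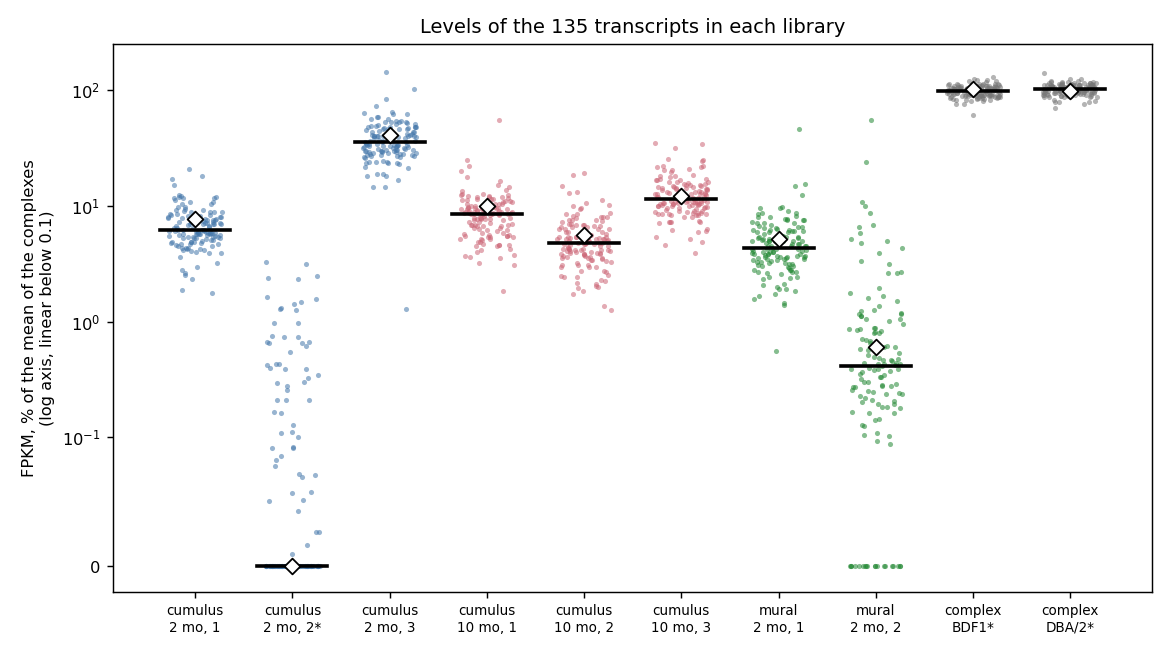
Level of each of the 135 transcripts (points) in each library as a percent of the mean of the complexes (y axis, log scale, linear below 0.1); black bars are medians, white diamonds are the medians of 21 known oocyte genes, and an asterisk marks the 3 libraries that chose the transcripts. The median was 35.4% in 2-month cumulus replicate 3 and 0.417% in mural replicate 2, with the other 5 unmarked libraries between 4.29% and 11.5%.

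Most single transcripts followed this order. The highest of the 7 libraries was 2-month cumulus replicate 3 for 132 of the 135, as it was for 14.0% of 12500 genes with a mean of 1 FPKM or more. The lowest was mural replicate 2 for 130 of the 135, as it was for 21.0% of those genes. Between 113 and 127 of the 135 lay within 2-fold of their library's median percent in the other 6 libraries, but 57 did so in mural replicate 2. The labels give no count of cells or oocytes per library, and what sets these libraries apart was not tested.

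Some transcripts lay on the same side of the median percent in every library. Above it in 7 of 7 libraries were 20 of them, and below it in 7 of 7 were 21. The percents of a transcript share the same denominator, so its sides are not independent between libraries. More than 2-fold above the median in at least 5 libraries were 4 (Tubb3, Smagp, Obox2 and Pkd2l2), and more than 2-fold below it 2 (Gm13023 and C87977). Farthest above by their mean over the 7 libraries were Obox2, Cd55, Smagp, E330011O21Rik, Tubb3, Pkd2l2, Adm2 and Trim61, and farthest below Efemp1, Gm13023, 9530091C08Rik and C87977. Smagp, a small adhesion glycoprotein, stood at 6.84, 0 and 31.5 FPKM in the 2-month cumulus libraries, 8.38, 7.26 and 8.35 in the 10-month ones and 3.60 and 1.63 in the mural ones, beside 40.4 and 34.7 in the BDF1 and DBA/2 complexes. E330011O21Rik reached 32.1 FPKM in 2-month cumulus replicate 3, above the lower complex (28.5). It and Obox2 were the only members to reach the lower complex in any of the 7 libraries. Pkd2l2, a polycystin-like channel, stood at 2.94, 0.824 and 14.7 FPKM in the 2-month cumulus libraries, 6.20, 2.55 and 8.55 in the 10-month ones and 3.73 and 2.48 in the mural ones, beside 21.5 and 28.7 in the BDF1 and DBA/2 complexes.

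A few members were not lowest in the mural libraries. Cd55, the complement decay-accelerating factor, stood at 2.12, 0.535 and 12.1 FPKM in the 2-month cumulus libraries, 2.49, 2.78 and 10.7 in the 10-month ones and 15.8 and 19.0 in the mural ones, beside 33.5 and 34.9 in the BDF1 and DBA/2 complexes. Its mural values lay above all 6 cumulus values and at 46.3% and 55.6% of the complexes, but 10.7% of its 50-base stretches are shared with Cd55b. Efemp1, the matrix protein fibulin-3, stood at 1.08, 0.452 and 0.782 FPKM in the 2-month cumulus libraries, 1.11, 2.08 and 2.41 in the 10-month ones and 4.75 and 5.26 in the mural ones, beside 37.0 and 85.3 in the BDF1 and DBA/2 complexes. It was higher in both mural libraries than in any cumulus library, and it was the only one of the 135 that was lowest in 2-month cumulus replicate 3 among the 7. Tubb3, a tubulin best known from neurons, stood at 5.72, 0.545 and 21.3 FPKM in the 2-month cumulus libraries, 7.61, 4.91 and 9.46 in the 10-month ones and 5.84 and 9.08 in the mural ones, beside 49.4 and 26.8 in the BDF1 and DBA/2 complexes. With Mtus1 these were the 4 transcripts at least as high in mural replicate 2 as in mural replicate 1.

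Markers of other cells moved beside these values. The 8 theca and stroma markers include Cyp11a1, which is also a mural marker above, so their sums are not of other cells alone. They summed to 1161 and 2596 FPKM in the mural libraries, 33.1, 280 and 814 in the 10-month cumulus libraries and at most 36.6 in the others. Their medians were 5.63 and 16.5 FPKM in the mural libraries, 1.91, 2.29 and 5.36 in the 10-month cumulus libraries and at most 1.12 in the others. Tcf21, Dcn, Col1a1 and Col1a2 were listed at 0 in the BDF1 complexes. The 6 endothelial markers summed to 21.9 and 55.8 FPKM in the mural libraries, 4.21 to 20.7 in the 10-month cumulus libraries and at most 6.80 elsewhere. The part of these cells in the mural levels of Cd55, Efemp1 and Tubb3 was not tested.

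**Figure D4:**
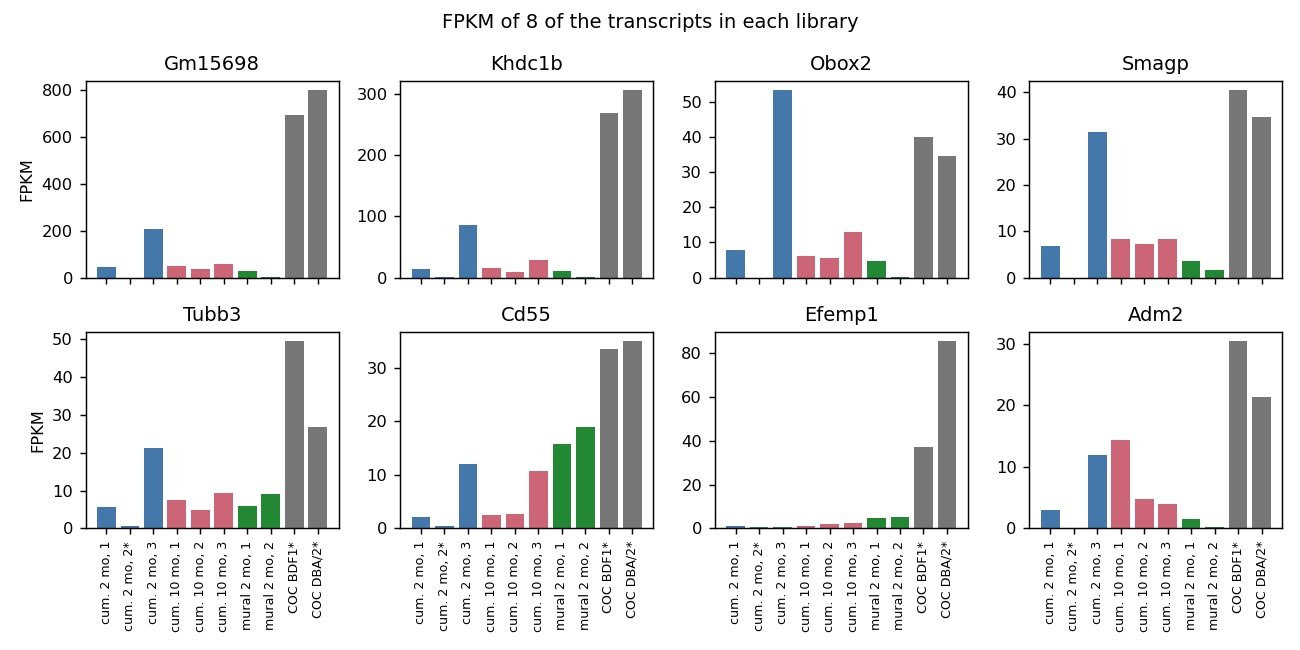
FPKM (y axes, each from 0) of 8 transcripts in the 10 libraries (x axes; cum. = cumulus cells, mo = months, COC = complexes, number = replicate, 1 bar per library, no error bars; asterisks mark the libraries that chose the transcripts). Gm15698, Khdc1b, Obox2, Smagp and Tubb3 are highest among separated cells in 2-month cumulus replicate 3, Cd55 and Efemp1 in mural replicate 2, and Adm2 in 10-month cumulus replicate 1.

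Mural granulosa cells were compared with cumulus cells at 2 months over the 7 libraries that the choice did not use, with limma's moderated test on log2(FPKM + 1), which understates changes of low genes, and Benjamini-Hochberg adjustment over 12500 genes. The library left out, 2-month cumulus replicate 2, had the least oocyte RNA of the cumulus libraries. Its absence raises the 2-month cumulus level of the 135 transcripts as a set. At an adjusted p below 0.05, 643 genes were higher in mural cells (5.14%) and 565 lower (4.52%). Of the 135 complex transcripts, all of which entered the test, 1 was higher and 1 lower, so their shares are below those of all genes. The median log2 difference over the 135 was -2.31, against -0.08 over all genes, and 133 of 135 were negative, as were 55.8% of all genes. The size of this median depended on single libraries: it was -1.20 without 2-month cumulus replicate 3, -1.56 without mural replicate 2, -3.08 without mural replicate 1 and -3.44 without 2-month cumulus replicate 1. The mural values of 118 lay wholly below those of 2-month cumulus replicates 1 and 3 (36.5% of all genes did so), and of 2, Cd55 and Efemp1, wholly above (27.8%). None of the 22 known oocyte genes tested passed, with a median of -2.63, and 19 of them had an unadjusted p under 0.05, as did 105 of the 135 and 31.4% of all genes.

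The higher transcript was Efemp1, at 5.01 ± 0.358 FPKM in mural (SD, n = 2) against 0.930 ± 0.208 in cumulus cells (SD, n = 2). Its log2 difference was 1.64 with an SE of 0.30 (limma, adjusted p = 0.0283). Cd55 did not pass, at 17.4 ± 2.24 against 7.12 ± 7.06 FPKM and a log2 difference of 1.52 with an SE of 0.78 (limma, adjusted p = 0.233). Without mural replicate 2, mural replicate 1, 2-month cumulus replicate 1 or 2-month cumulus replicate 3, the adjusted p of Efemp1 was 0.210, 0.111, 0.0668 or 0.121. It passed in 9 of 15 other settings, and its difference was positive in all 15. Of these settings, 1 added 2-month cumulus replicate 2, where the rule required a value below 1 FPKM. Its pass in that setting is therefore favoured by the choice and is no support.

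The lower transcript was Zfp296, a zinc finger gene of germ and stem cells, with 5.80, 0.781 and 19.9 FPKM in the 2-month cumulus libraries, 4.44, 4.52 and 6.39 in the 10-month ones and 1.89 and 0.143 in the mural ones, beside 47.0 and 48.5 in the BDF1 and DBA/2 complexes. Both mural values lay below every cumulus value other than that of replicate 2. Without replicate 2 mural cells averaged 1.02 ± 1.24 FPKM (SD, n = 2) and cumulus cells 12.9 ± 10.00 (SD, n = 2), a log2 difference of -2.71 with an SE of 0.61 (limma, adjusted p = 0.0420). It lost the call in 12 of 16 other settings, in which the adjusted p rose to 0.245 at most. Among these is the fit that adds replicate 2, where the rule required a low value. Zar1l (log2 difference -3.09, limma adjusted p = 0.0516) and Klf17, a Krüppel-like factor (-2.44, limma adjusted p = 0.0574), came next and did not pass. With the level of the known oocyte genes as a covariate, the median over the 135 was -0.06, and -0.12 in the age comparison below. With that covariate 3 of all genes passed in the mural comparison, against 1208 without it. It follows the same order of libraries as the 135, so these medians test no part of oocyte RNA.

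Other genes of the same processes, from the lists used above and outside the 135, behaved unevenly in the mural comparison. In the list for meiotic arrest and division 9 of the 19 tested were lower in mural cells and none higher, among them Ccnb1, Plk1 and Cdc20, which drive mitosis as well as meiosis. Of the meiotic chromosome genes 6 of 12 were lower, including Trip13 and Bub1b, which also act in mitosis. Of RNA storage 1 of 13 was lower (Slbp), of small RNA 0 of 5 passed, and of transcription and chromatin 2 of 13 were lower (Taf4b and Cbx2). Of the egg surface list 1 of 13 was higher (Cacna1h) and 1 lower (Rgs2). None of these 20 calls was made with the oocyte covariate, or without mural replicate 1, mural replicate 2, 2-month cumulus replicate 1 or 2-month cumulus replicate 3, and 6 were made without 10-month replicate 1. In the age comparison none of these genes passed with limma.

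Cumulus cells at 10 and 2 months were compared in the same fit, and so share the 2-month libraries with the mural comparison. Leaving out 2-month cumulus replicate 2 raises the 2-month level of the 135 transcripts as a set here too. Over all genes 1 was higher at 10 months (0.00800%) and 4 lower (0.0320%). None of the 135 passed with limma, and none had an unadjusted p under 0.05, as 8.39% of all genes did. The median log2 difference was -0.89, against -0.04 over all genes, with 133 negative (54.6% of all genes were). For 1 of them, Efemp1, the 10-month values lay wholly above the 2-month ones (11.2% of all genes), and for none wholly below (11.7%).

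The direction of this median rested on 2-month cumulus replicate 3. Without that library the median was 0.19 and 112 transcripts were positive. Efemp1 stood at 1.87 ± 0.676 FPKM at 10 months (SD, n = 3) against 0.930 ± 0.208 at 2 months (SD, n = 2), a log2 difference of 0.55 (limma, adjusted p = 0.605). Adm2, the peptide hormone intermedin, stood at 3.05, 0 and 11.9 FPKM in the 2-month cumulus libraries, 14.3, 4.76 and 3.94 in the 10-month ones and 1.59 and 0.225 in the mural ones, beside 30.4 and 21.3 in the BDF1 and DBA/2 complexes, so that 10-month replicate 1 alone was above 2-month replicate 3. Its log2 difference was 0.07 (limma, adjusted p = 0.982) and turned to -0.44 without 10-month replicate 1. The smallest p values among negative differences were those of Zfp957, Folr4 and Upp1, uridine phosphorylase, with log2 differences of -1.16, -1.10 and -1.01 and limma adjusted p of 0.587, 0.638 and 0.642.

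BDF1 and DBA/2 complexes were close to each other, with 1 library each and so no test. The median ratio of BDF1 to DBA/2 was 0.961 over the 135, and 1.02 over the 4340 genes at 20 FPKM or more in both. None of the 135 was 2-fold higher in BDF1 (0.553% of the 4340 were) and 1 was so in DBA/2 (0.507%). At 1.5-fold, 6 were higher in BDF1 (3.69%) and 3 in DBA/2 (2.97%). The members' values in the complexes chose them, so the ratios describe only transcripts that passed 20 FPKM in both.

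Efemp1 had the largest difference, with 37.0 FPKM in BDF1 against 85.3 in DBA/2, a ratio of 0.434. The next lowest ratios were those of C86187 (0.608), the homeobox gene Gbx2 (0.610), Gm97 (0.674) and Gm13023 (0.681). In the other direction Tubb3 stood at 49.4 and 26.8 FPKM, a ratio of 1.84, followed by AA792892 (1.65), Khdc1c (1.55), Fbxw15 (1.53) and Lypd3 (1.52). Khdc1b lies beside Khdc1c and had a ratio of 0.880, but 43.1% of the 50-base stretches of Khdc1c also lie in Khdc1a. For AA792892 and Gm13023, 46.5% and 37.5% of the stretches also lie in other transcripts. The ratios of Khdc1c, AA792892 and Gm13023 are therefore uncertain.

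**Figure D5:**
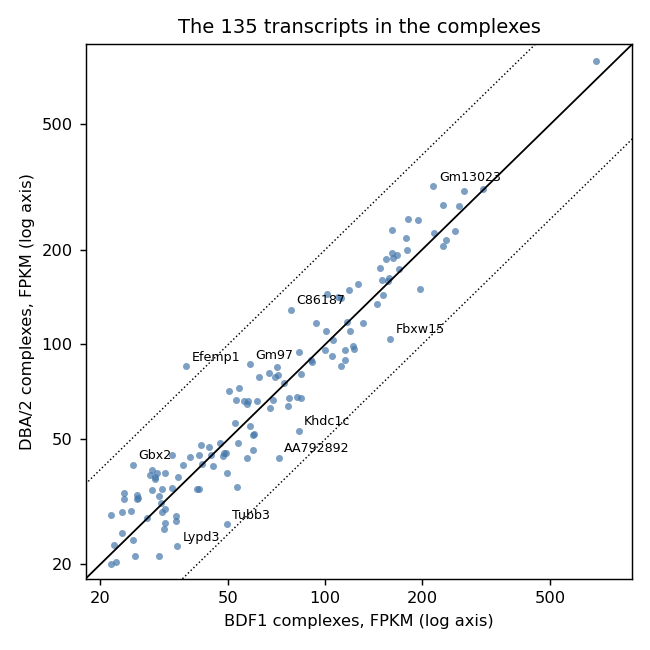
FPKM of the 135 transcripts in BDF1 (x axis) and DBA/2 complexes (y axis), both on log scales; the solid line marks equal values and the dotted lines a 2-fold difference, 1 library each. Efemp1 alone lies beyond a dotted line, and Tubb3 is the farthest on the BDF1 side at a ratio of 1.84.

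Shared sequence limits some single values. Of 132 members with a transcript in GENCODE M21, 69 shared no 50-base stretch with another gene, 36 shared 10% or more of them and 11 shared 50% or more. Gm14431 shared every stretch with another zinc finger gene. Efemp1, Zfp296, Zfp57, Cpsf4l and E330011O21Rik shared none. The sources used here do not state how reads that match several genes were assigned.

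The thresholds cut through a continuous range. Just inside 20 FPKM lay Tdrd1 (lower complex 20), A730082K24Rik (20.3) and D7Ertd443e (21.2), and just outside lay Tuba3a (19.0), Bfsp1 (18.8) and Tmcc3 (18.7). Just below 1 FPKM in replicate 2 lay 9230115E21Rik (0.971), Dclk2 (0.971) and Rab38 (0.905), and just above lay Gja4 (1.02), Meis2 (1.03) and Pla2g4c (1.04).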

How the data were processed

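RNA-seq levels of 10 libraries were taken from the authors' deposited table of FPKM, for which the submitters' processing notes list TopHat2 2.1.0, Cufflinks 2.1.0 and build mm9. The sources used here give neither strandedness, annotation nor read counts. A repeated header line was dropped. The transcripts and gene lists were chosen with earlier results of these data known. Differences were tested with limma 3.58.1 in R 4.3.3 (trend, log2(FPKM + 1), mean FPKM of at least 1, 7 libraries, 4 residual degrees of freedom), leaving out 2-month cumulus replicate 2 because it helped choose the transcripts. In simulated data for 12500 genes the mural fit recovered 26% and 71%, and the age fit 37% and 86%, of genes changed by 1 and 2 on the log2 scale. The changes were put only into genes at a level well above this filter, so the rates do not cover low transcripts such as Efemp1. Each gene was drawn independently, whereas the complex transcripts moved together between libraries, so the rates do not cover them as a set either. Named transcripts were those with the highest levels, the smallest p per contrast, the largest strain ratios, the largest departures from the common level, the leading members of each list, and those beside the thresholds. Others were named for family or function after values were seen. Relative depth is the commonest step ratio between low values (below 0.6 FPKM) of 861 to 2225 genes per library. Motifs and 50-base stretches were counted with Biopython 1.88. Alternatives were the pseudocount, filter, scaling, library choice, an oocyte covariate, a replicate block and leaving out each replicate.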

Additional observations from a re-analysis of the deposited data

How the results depend on the processing

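With 10 FPKM as the lower limit the rule found 210 transcripts. Rescaling the libraries to 1 sum moved the median BDF1 to DBA/2 ratio to 0.894. With all 8 C57BL/6 libraries, 2599 genes passed in the mural and 0 in the age comparison, in which limma gave 5 with 7 libraries. The oocyte covariate left 3 genes and 0 complex transcripts in the mural comparison. Of the complex transcripts, 1 passed there with a pseudocount of 5, no filter, rescaling, all 8 libraries or the replicate block, and 6 passed with quantile normalization. With replicates left out in turn, the mural count ran from 13 to 1710 genes and 0 to 2 complex transcripts, and the age count from 6 to 48 genes. The lowest mural counts came without mural replicate 2 (13), mural replicate 1 (20), 2-month cumulus replicate 3 (26) and 2-month cumulus replicate 1 (90), and 577 genes passed without 10-month replicate 1. The age count was 48 without 10-month replicate 2, 10 without 10-month replicate 1, 9 without 10-month replicate 3 and 23 without either 2-month replicate. In the age comparison Adm2 turned to -0.0035 with quantile normalization and ran from -0.77 (without 2-month replicate 1) to 0.90 (without 2-month replicate 3) with replicates left out, at -0.44 without 10-month replicate 1. Folr4 turned to 0.10 and Upp1 to 0.036 with all 8 libraries. In that fit the median over 134 complex transcripts was -1.15 in the mural and 0.26 in the age comparison. It says nothing of the transcripts' direction because the rule chose them as low in the added replicate 2. The fit of 7 libraries is not neutral either, since it leaves out the 2-month library with the least oocyte RNA. Upp1 ran from -2.03 (without 2-month replicate 1) to 0.0050 (without 2-month replicate 3). The cause of these changes was not tested. Same-numbered libraries had correlations of -0.052 to 0.214 in their deviations, not all over 0.1, so the replicate numbers were not taken as pairs. The replicate block gave 1621 genes in the mural comparison, and Cd55 as the transcript that passed (log2 2.37, limma adjusted p = 0.0289), while Efemp1 (limma adjusted p = 0.0534) and Zfp296 (0.0811) did not pass, and the median over the 135 was -1.35. The age comparison gave 6 genes and 0 complex transcripts in that fit. FPKM carry no counts, so no counting error is given.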
